A study of Mus musculus with 4 samples.

Results

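The small leucine-rich proteoglycans are secreted matrix proteins whose core is a curved stack of leucine-rich repeats. The 10 genes Dcn, Bgn, Aspn, Fmod, Lum, Prelp, Kera, Omd, Epyc and Ogn were taken by name from a single-cell count table of 31053 genes. All 10 had a row in the table, and all 10 reached at least 10 CPM (UMIs per 1000000 UMIs, where a UMI is a molecular barcode that marks 1 captured RNA molecule) in at least 1 of 4 classes of cells. The cells came from 2 whole tibiae, labeled as proximal and distal tibia, of 1 male mouse at postnatal day 6 (P6), pooled into 1 library whose 4 sequencing entries are runs of the same library. The mouse carried Col10a1Cre, Rosa26-Tdtomato, Irx3 +/Δ and Irx5 +/-, which the labels call an Irx3/5 heterozygous control, and no library of another genotype or age was analysed here. Col10a1 is made by hypertrophic chondrocytes (HCs), the last stage of growth plate cartilage, so the Cre driver switches on the tdTomato reporter in HCs and leaves it on in cells that descend from them. The secondary ossification centers were left out when the bones were taken. Because there was 1 library of 1 mouse, no difference could be tested across animals. The intervals given below are exact 95% intervals that cover counting error only, and a gene is called where the groups differ at least 2-fold on the log2(CPM + 1) scale and 1 of them holds 10 CPM or more.

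The proteins of this family bind collagen fibrils through the concave face of the repeats and set how thick the fibrils grow and how they are spaced. Class I members (decorin, biglycan and asporin) bind TGF-beta as well as collagen, and decorin and biglycan carry chondroitin or dermatan sulfate chains. Class II members (fibromodulin, lumican, PRELP, keratocan and osteomodulin) are mostly keratan sulfate proteins, and class III holds epiphycan of growth cartilage and osteoglycin. In skeletal tissue, loss of biglycan or of biglycan with fibromodulin is known for thin bone and weak tendon.

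On the GRCm38 assembly 9 of the 10 genes lay in 3 groups of neighbors, and no protein-coding gene lay between neighbors of a group. On chromosome 10 the order was Dcn (chr10:97479609-97518143), Lum (chr10:97565128-97572703), Kera (chr10:97606879-97613692) and Epyc (chr10:97644068-97682454), with gaps of 47.0, 34.2 and 30.4 kb. On chromosome 13 Aspn (chr13:49544443-49567565), Omd (chr13:49582462-49592822) and Ogn (chr13:49608046-49624501) followed Ecm2 with gaps of 11.7, 14.9 and 15.2 kb. These 4 genes all lay inside the span of Cenpp, a centromere protein gene on the opposite strand. On chromosome 1 Prelp (chr1:133910304-133921414, minus strand) and Fmod (chr1:134037254-134048277) were 116 kb apart, and Bgn stood alone on chromosome X (chrX:73483602-73495933). Prelp overlapped an antisense gene, Gm15851, and Epyc a noncoding gene, Gm10754, both on the opposite strand. Whether the counting used strand is not stated in the sources at hand, so reads of these overlaps may be shared.

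The 250 bases before the start of 4 genes are printed below because these genes formed pairs of like pattern. The pairs were Epyc with Prelp in cartilage, on different chromosomes, and Aspn with Ogn in fibroblasts, in the same group with Omd between them. Sequences are those of RefSeq on GRCm38.p6, 5′ to 3′ on the strand of the gene, and capitals mark matches to the motifs searched on both strands. The motifs were a TATA box (TATAAA), a SOX site (ACAAAG or ACAATG) and a RUNX site (TGTGGT). Epyc is chr10:97643818-97644067 with 39.2% GC, Prelp is chr1:133921402-133921651 on the minus strand with 55.6% GC, Aspn is chr13:49544193-49544442 with 30% GC and Ogn is chr13:49607765-49608014 with 42% GC.
Epyc: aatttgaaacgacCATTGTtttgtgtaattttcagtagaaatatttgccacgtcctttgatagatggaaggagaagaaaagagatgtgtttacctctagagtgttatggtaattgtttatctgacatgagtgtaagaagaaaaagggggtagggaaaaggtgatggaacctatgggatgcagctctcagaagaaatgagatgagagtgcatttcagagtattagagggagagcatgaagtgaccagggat
Prelp: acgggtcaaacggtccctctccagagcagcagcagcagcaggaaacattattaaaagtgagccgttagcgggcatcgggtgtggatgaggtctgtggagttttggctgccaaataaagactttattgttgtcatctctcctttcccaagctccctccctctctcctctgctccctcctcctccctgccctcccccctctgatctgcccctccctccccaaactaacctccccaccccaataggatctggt
Aspn: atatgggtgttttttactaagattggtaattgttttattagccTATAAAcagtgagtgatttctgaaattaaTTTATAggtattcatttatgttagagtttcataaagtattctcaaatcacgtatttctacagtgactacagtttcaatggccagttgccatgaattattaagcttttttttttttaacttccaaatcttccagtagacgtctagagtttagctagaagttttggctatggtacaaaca
Ogn: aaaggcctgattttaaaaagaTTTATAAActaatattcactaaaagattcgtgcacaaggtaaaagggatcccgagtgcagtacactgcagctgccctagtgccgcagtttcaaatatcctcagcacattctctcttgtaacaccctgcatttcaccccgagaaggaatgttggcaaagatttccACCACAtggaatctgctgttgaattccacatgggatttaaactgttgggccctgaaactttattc
Epyc held 1 SOX match, 237 bases before the start shown, which is the start in GENCODE, and Prelp held no match to any of the 3 motifs. RefSeq lists a further Epyc start 3035 bases downstream, whose 250 bases (chr10:97646853-97647102, not printed) held 3 SOX matches, at 209, 202 and 147 bases before it. Aspn held TATA matches 207 and 178 bases before its start, on opposite strands. In Ogn a TATA match on each strand overlapped at 229 and 227 bases before the start, and a RUNX match lay 65 bases before it. RefSeq promoters were on hand for 8 of the 10 genes, all but Dcn and Lum. Of these 8, 2 held a TATA match against 12.4% of 32851 promoters, 2 held a SOX match against 25.2%, and 1 held a RUNX match against 14.05%. These matches describe letters only.

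Of 14181 barcodes, 8705 had at least 1600 genes. After limits on mitochondrial and ribosomal protein UMIs were also applied, 8255 remained, with a median of 13957 UMIs. Clustering gave 30 clusters, and all but 2 of them (184 cells) were named from marker genes. The 4 classes described here were 1934 chondrocyte-like cells in 7 clusters (median 22149.5 UMIs), 986 osteoblast-like cells in 2 clusters (14448.5 UMIs), 314 fibroblast-like cells in 2 clusters (9967 UMIs) and 214 stromal-like cells (10035 UMIs). Each class carried its own markers: Col2a1 of cartilage reached 45333 CPM in chondrocyte-like cells, Col1a1 of bone 37512 CPM in osteoblast-like cells, Postn of periosteum 1722 CPM in fibroblast-like cells and Cxcl12 of marrow stroma 9163 CPM in stromal-like cells. The 10 genes were kept out of the genes that defined the clusters. RNA of red blood cells was high in the Postn-rich fibroblasts, where haemoglobin made up 9.02% of UMIs and 37 of 150 cells were over 1%, and its part in the values was not tested. Leaving out cells with over 1% haemoglobin kept all 40 class levels of the 10 genes within 1.5 times. This removed 37 of 314 fibroblast-like, 24 of 986 osteoblast-like, 11 of 1934 chondrocyte-like and 2 of 214 stromal-like cells. Few cells were thus removed outside the fibroblast-like class, and levels of the Postn-rich cluster itself are not among the 40.

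Fibroblast-like cells gave the largest share of their RNA to this family. The 10 genes together made up 1.01% of UMIs in fibroblast-like cells, 0.495% in osteoblast-like cells, 0.476% in chondrocyte-like cells and 0.302% in stromal-like cells, against 0.0120% in leukocyte-like cells. Of the 10 genes, 6 had their highest class level in fibroblast-like cells, where 28.1% of all genes tested did. For 2 of these the lead was slight: Fmod was 1.07-fold its chondrocyte-like level, and the Ogn interval overlapped that of stromal-like cells. By cluster Fmod was highest in chondrocytes. Epyc and Prelp were highest in chondrocyte-like cells, as were 19.9% of all genes. Lum and Omd were highest in osteoblast-like cells, as were 8.56% of all genes. No member was highest in stromal-like cells, against 43.5% of all genes. These are summed UMIs, in which fewer expressing cells and less RNA per cell cannot be told apart.

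**Figure D1:**
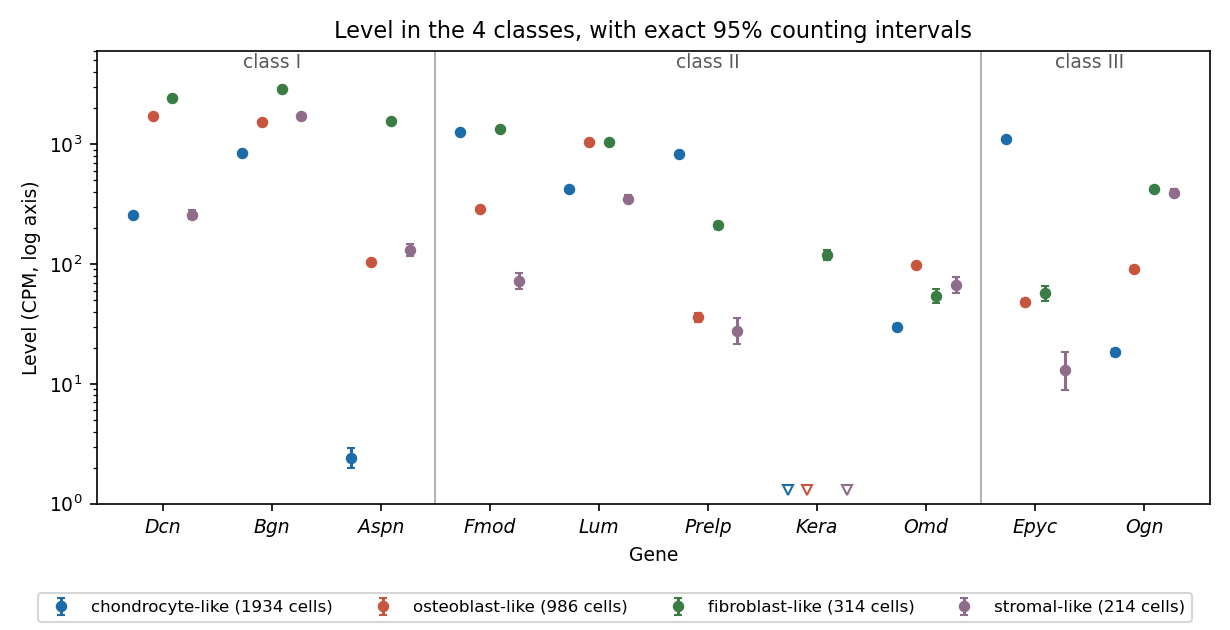
Level of each gene (CPM, log axis) in the 4 classes of cells, with genes ordered by class of the family along the horizontal axis. Points are summed UMIs of a class, bars are exact 95% counting intervals, and open triangles mark a class with fewer than 10 UMIs, drawn at the foot of the axis and not to scale. Fibroblast-like cells (green) hold the top point for 6 genes, and Epyc and Prelp are led by chondrocyte-like cells (blue).

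Among class I genes, Dcn, which encodes decorin, the best known binder of type I collagen fibrils, was highest in fibroblast-like and osteoblast-like cells. Dcn stood at 2412 CPM (2362 to 2462) in fibroblast-like, 1723 CPM (1703 to 1744) in osteoblast-like, 258 CPM (253 to 263) in chondrocyte-like and 258 CPM (238 to 279) in stromal-like cells. The last of these intervals overlapped and the others stood apart. Bgn, which encodes biglycan, the close relative of decorin that is rich in mineralizing matrix, was high in all 4 classes. Its levels were 2876 CPM (2821 to 2931) in fibroblast-like, 1708 CPM (1656 to 1762) in stromal-like, 1520 CPM (1501 to 1539) in osteoblast-like and 844 CPM (835 to 852) in chondrocyte-like cells. All 4 classes differed beyond counting error. Stromal-like cells, low in Dcn, were second in Bgn, and the ratio of Dcn to Bgn UMIs was 1.27 in mature osteoblasts, 0.151 in stromal-like cells and 0.0392 in pericytes.

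Aspn, which encodes asporin, a calcium-binding member that competes with decorin for collagen, was the sharpest of class I. It reached 1551 CPM (1511 to 1592) in fibroblast-like cells, 131 CPM (117 to 146) in stromal-like cells, 103 CPM (98.4 to 108) in osteoblast-like cells and 2.41 CPM (1.98 to 2.91) in chondrocyte-like cells. The fibroblast-like level was 15.0-fold (14.2 to 15.9) that of osteoblast-like cells and 643-fold (533 to 784) that of chondrocyte-like cells. When each cell was thinned to 5000 UMIs, which left out 5 chondrocyte-like, 14 osteoblast-like, 6 fibroblast-like and 5 stromal-like cells that were shallower, 74.4% of fibroblast-like cells (69.1 to 79.1) held an Aspn UMI. The share was 16% of osteoblast-like and 0.674% of chondrocyte-like cells. Leukocyte-like cells, which should lack the gene, showed 0.645% at a median of 10564 UMIs, so the chondrocyte share was near that of leukocyte-like cells. Without thinning the shares were 80.6%, 20.6%, 1.71% and 1.41% in that order. Of the 110 Aspn UMIs in chondrocyte-like cells, 40 were in the Sfrp5-rich cluster described below (29.3 CPM). The source of Aspn in chondrocyte-like cells was not tested.

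Class II genes split between cartilage, bone and fibrous tissue. Fmod, which encodes fibromodulin, a collagen binder that steers cross-linking in tendon and cartilage, was high in both fibroblast-like cells (1341 CPM, 1304 to 1379) and chondrocyte-like cells (1257 CPM, 1247 to 1267). It was 290 CPM (282 to 298) in osteoblast-like cells and 71.7 CPM (61.4 to 83.3) in stromal-like cells. Lum, which encodes lumican, the keratan sulfate protein of cornea and connective tissue, did not differ beyond counting error between osteoblast-like cells (1038 CPM, 1023 to 1054) and fibroblast-like cells (1034 CPM, 1001 to 1067). Chondrocyte-like cells held 424 CPM (418 to 430) and stromal-like cells 351 CPM (328 to 376). Prelp, which encodes a proline- and arginine-rich protein that links matrix to heparan sulfate, ran the other way. It was 828 CPM (820 to 836) in chondrocyte-like cells, 209 CPM (195 to 225) in fibroblast-like cells, 35.8 CPM (33.0 to 38.9) in osteoblast-like cells and 27.7 CPM (21.4 to 35.2) in stromal-like cells, and the last 2 intervals overlapped.

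Kera, which encodes keratocan, a keratan sulfate protein known from cornea and tendon, was found in fibroblast-like cells almost alone. It had 443 UMIs there (119 CPM, 109 to 131), 2 UMIs in osteoblast-like cells, 1 UMI in chondrocyte-like cells and 0 in stromal-like cells, where a count of 0 allows up to 1.26 CPM. The ratio of fibroblast-like to osteoblast-like cells was 976, with a counting interval of 269 to 8085 because it rests on 2 UMIs. Kera was seen in 23.4% of thinned fibroblast-like cells (18.8 to 28.5) and in none of 2325 thinned leukocyte-like cells. Unthinned shares were 27.7% and 0.118%. Omd, which encodes osteomodulin, a bone matrix protein that binds mineral, was by class highest in osteoblast-like cells and present in every class. It was 97.7 CPM (93.0 to 103) in osteoblast-like, 66.7 CPM (56.7 to 77.9) in stromal-like, 54.2 CPM (46.9 to 62.2) in fibroblast-like and 30.1 CPM (28.5 to 31.7) in chondrocyte-like cells. The stromal-like and fibroblast-like intervals overlapped. The order by cluster was different. Among 15 clusters Omd was highest in the Sfrp5-rich chondrocytes described below (333 CPM), followed by Postn-rich fibroblasts (106 CPM) and mature osteoblasts (99.3 CPM).

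The pair of class III genes had opposite homes. Epyc, which encodes epiphycan, a dermatan sulfate protein of growth plate cartilage, was 1102 CPM (1092 to 1111) in chondrocyte-like cells, 56.9 CPM (49.5 to 65.1) in fibroblast-like cells, 47.7 CPM (44.4 to 51.2) in osteoblast-like cells and 13.01 CPM (8.84 to 18.5) in stromal-like cells. The fibroblast-like and osteoblast-like intervals overlapped, with a ratio of 1.19 (1.02 to 1.39). Ogn, which encodes osteoglycin, a small protein first isolated from bone, was 418 CPM (397 to 439) in fibroblast-like and 393 CPM (368 to 419) in stromal-like cells, which overlapped. Osteoblast-like cells held 91.3 CPM (86.7 to 96.1) and chondrocyte-like cells 18.3 CPM (17.1 to 19.6). After thinning, 68.8% of fibroblast-like, 66.5% of stromal-like, 25.4% of osteoblast-like and 9.12% of chondrocyte-like cells held an Ogn UMI, against 0.731% of leukocyte-like cells. Unthinned, these were 81.2%, 80.8%, 40.6%, 25% and 1.45%.

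Between classes, 5 of 10 members were called higher in fibroblast-like than in osteoblast-like cells (Aspn, Fmod, Prelp, Kera and Ogn), where 11.6% of all genes tested were. None was called higher in osteoblast-like cells, against 4.53% of all genes. The median log2 ratio was 1.55 over the members and 0.18 over all 8839 genes tested. Against chondrocyte-like cells, 5 of 9 members tested were called higher in osteoblast-like cells (background 16.7%), namely Dcn at 6.68-fold, Aspn at 42.9-fold, Ogn at 5.00-fold, Omd at 3.25-fold and Lum at 2.45-fold. In the other direction 3 of 9 were called (background 9.29%), with Prelp and Epyc each 23.1-fold and Fmod 4.34-fold higher in chondrocyte-like cells. Cartilage and bone thus differed in 8 of 9 members, and only Bgn, at 1.80-fold higher in osteoblast-like cells, was inside the 2-fold limit. Fibroblast-like cells exceeded chondrocyte-like cells in 6 of 10 members (background 26.0%) and were exceeded in 2 of 10, Prelp and Epyc (background 7.25%).

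In droplet data, RNA set free by broken cells is counted in cells that do not make it, and 2 of the cartilage genes were read against this. Per 100 Col2a1 UMIs, Epyc gave 2.43 UMIs in chondrocyte-like cells, 2.61 in immature and 2.70 in mature osteoblasts, 2.39 in fibroblast-like, 2.07 in stromal-like and 2.23 in leukocyte-like cells. The ratio in these groups lay between 2.07 and 2.70, it was 1.95 in the Postn-rich fibroblast cluster, and it was 3.94 in the smooth muscle or pericyte cluster. In most of these groups Epyc stood near its ratio in the chondrocyte-like class and in leukocytes. Within cartilage the ratio itself ran from 0.813 in Sfrp5-rich to 3.23 in Matn1-rich chondrocytes, so nearness does not settle the source. Epyc levels outside cartilage are not taken to show expression by those cells. Whether those cells made Epyc, or free RNA or doublets brought it, was not tested. Prelp gave 1.83 per 100 Col2a1 UMIs in chondrocyte-like cells, 2.02 in immature and 2.01 in mature osteoblasts and 1.56 in leukocyte-like cells. The ratio was 8.23 in Tnmd-rich and 13.97 in Postn-rich fibroblasts and 4.41 in stromal-like cells, above the ratio of the leukocytes. Fmod gave 39.5 in immature and 9.18 in mature osteoblasts against 2.77 in chondrocyte-like and 3.56 in leukocyte-like cells.

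**Figure D2:**
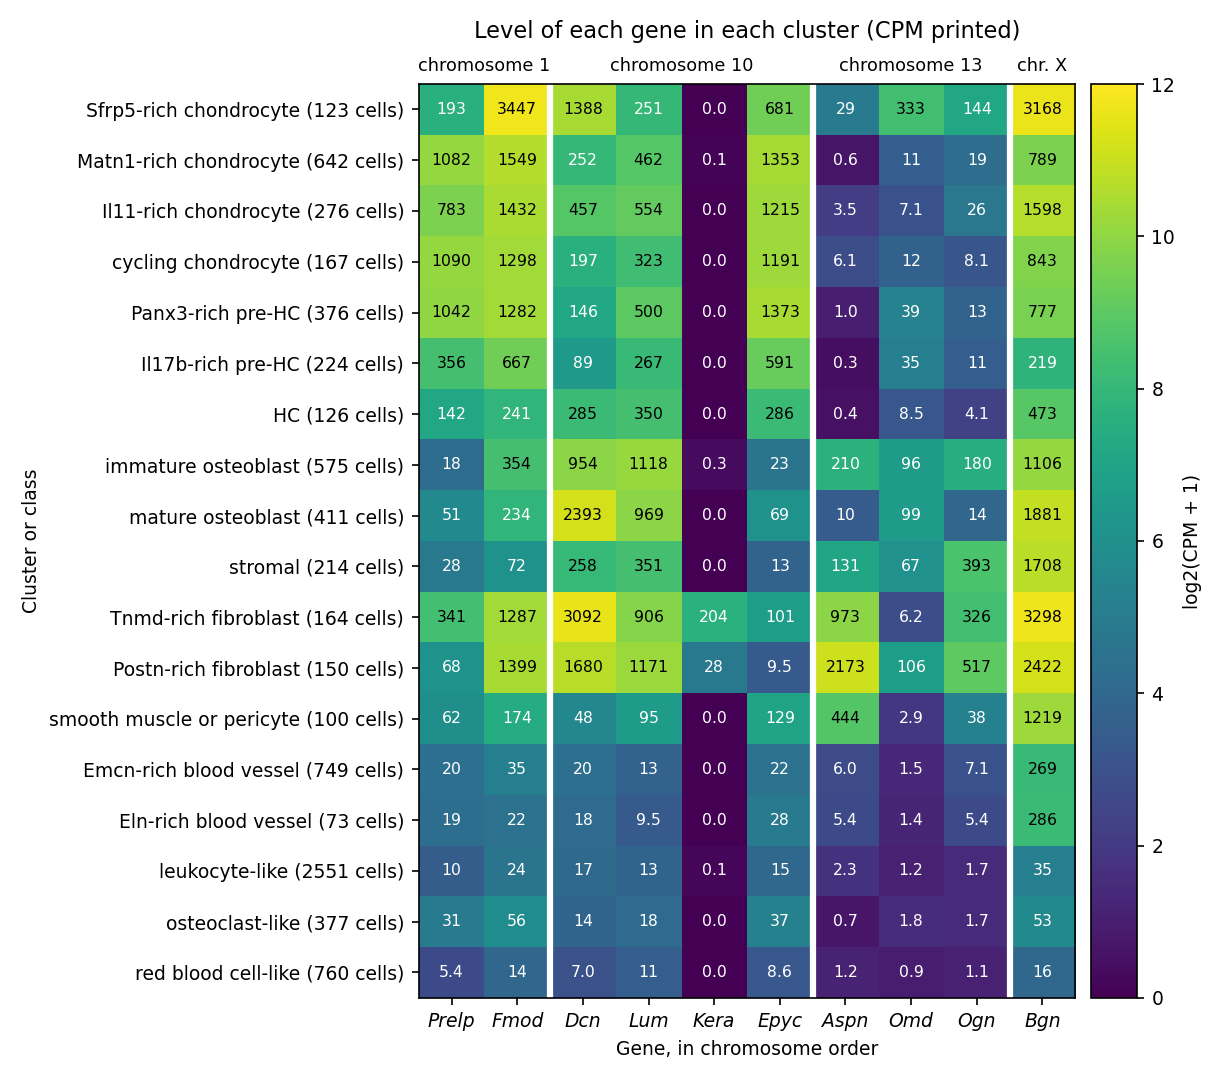
Level of each gene (columns, in chromosome order) in each cluster or class (rows, with cell numbers). Color gives log2(CPM + 1) and the printed number is CPM of summed UMIs. Neighbors on a chromosome (between white lines) need not share a pattern: Kera is seen in the fibroblast rows and Epyc, next to it, in the cartilage rows. A cluster of 13 cells is not drawn.

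The fibroblast-like class held a cluster rich in Tnmd (164 cells), the gene of tenomodulin in tendon and ligament, and a cluster rich in Postn (150 cells), the gene of periostin in periosteum. Neither gene was confined to its cluster. The Tnmd-rich cells held 2069 of the 2689 Tnmd UMIs of the class, and also 2393 of its 6389 Postn UMIs (1245 CPM). The names thus give leading genes and not separate tissues. The clusters shared high Dcn, Bgn, Fmod and Lum. Dcn was 3092 CPM in Tnmd-rich and 1680 CPM in Postn-rich cells, Bgn 3298 and 2422 CPM, Fmod 1287 and 1399 CPM, and Lum 906 and 1171 CPM. None of these 4 reached the 2-fold limit. Of 10 members, 3 were called higher in Tnmd-rich cells (background 12%). Kera was 204 CPM (185 to 226) against 28.0 CPM (20.8 to 36.9), 7.31-fold. Prelp was 341 CPM (315 to 368) against 68.2 CPM (56.7 to 81.5), 4.99-fold. Epyc was 101 CPM (87.2 to 116) against 9.51 CPM (5.54 to 15.2), but Col2a1 moved with it, from 488 CPM in Postn-rich to 4138 CPM in Tnmd-rich cells, and with at least 1000 genes per cell the Epyc ratio turned to a log2 value of -0.46. In Postn-rich cells 2 of 10 members were called higher (background 4.96%), Aspn at 2173 CPM (2105 to 2242) against 973 CPM (929 to 1018) and Omd at 106 CPM (91.2 to 122) against 6.24 CPM (3.23 to 10.9), a 16.9-fold difference. Within the Tnmd-rich cells Kera was uneven: the top 10% of cells held 62.1% of its UMIs, and 37.7% of thinned cells had one. In the Postn-rich cells the top 10% held 29.0% of Aspn UMIs and 79.5% of thinned cells had one.

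In cartilage, the Sfrp5-rich cluster (123 cells) stood apart from the other chondrocytes. Sfrp5 encodes a secreted Wnt antagonist, and this cluster also held Prg4, the lubricin gene of the joint surface, at 127 CPM against 0.155 CPM in the Matn1-rich cluster. Prg4 was not particular to it, since the HC cluster described below held 50.2 CPM. The family made up 0.963% of the UMIs of the Sfrp5-rich cluster, compared with 0.552% in the 642 Matn1-rich chondrocytes, named for a cartilage matrix gene. In the Sfrp5-rich cluster 6 of 9 members were called higher than in Matn1-rich cells (background 10.6%). Only 8 alternative settings allowed this comparison, which needs both clusters to be found under their names. In those settings 6 to 8 members differed at least 2-fold in either direction. Bgn was 3168 CPM (3074 to 3264) against 789 CPM (773 to 804), and Dcn was 1388 CPM (1326 to 1452) against 252 CPM (244 to 261). Fmod was 3447 CPM (3349 to 3547) against 1549 CPM (1528 to 1571), its highest level in any cluster. The genes of the chromosome 13 group were higher too: Omd was 333 CPM against 10.9 CPM, a 30.5-fold difference (25.2 to 37.1), Ogn 144 CPM against 18.7 CPM, and Aspn 29.3 CPM against 0.620 CPM. The Aspn level rested on 40 UMIs, and only 3 of 121 thinned Sfrp5-rich cells held one, so most cells of the cluster showed no Aspn. The Omd level was also the highest among 15 clusters, but it was uneven there, since the top 10% of cells held 60.6% of Omd UMIs. Prelp was the 1 member of 9 called higher in Matn1-rich cells (background 5.27%), at 1082 CPM against 193 CPM. Epyc was 1353 CPM against 681 CPM, a 1.99-fold difference just inside the limit. This cluster was shallower, with a median of 10717 UMIs against 19314. Markers of other cells were higher in it too: the 14 fibroblast markers summed to 961 CPM (7 of 14 at 10 CPM or more) against 110 CPM (1 of 14), with Tnmd at 21.3 against 0.775 CPM, and the 13 osteoblast markers to 4300 CPM (9 of 13) against 1392 CPM (8 of 13). Their part in these differences was not tested.

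The Il11-rich (276 cells) and cycling (167 cells) clusters were close to the Matn1-rich cells in Fmod (1432 and 1298 CPM) and Epyc (1215 and 1191 CPM). Bgn was 1598 CPM in the Il11-rich cluster and 843 CPM in the cycling cluster. The Panx3-rich pre-HC cluster (376 cells) held Epyc at 1373 CPM (1351 to 1395), whose interval overlapped that of the Matn1-rich cells (1333 to 1374). In the Il17b-rich pre-HC cluster (224 cells) Epyc was 591 CPM, Prelp 356 CPM, Fmod 667 CPM, Lum 267 CPM, Bgn 219 CPM and Dcn 89.1 CPM. Each of these was below its level in the Panx3-rich cluster. The 2-fold call was not run for this pair of clusters, so no share of all genes can be set beside these values.

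The HC cluster (126 cells, with Col10a1 at 10118 CPM) was low in most of the family, which made up 0.179% of its UMIs. Its name rests on Col10a1, and other listed stage markers did not follow the names. The pre-hypertrophic markers Ihh and Pth1r were 168 and 1082 CPM in HCs. They were 114 and 864 CPM in the Panx3-rich and 87.0 and 1053 CPM in the Il17b-rich pre-HC cluster. Panx3, listed as a hypertrophic marker, was 259 CPM in HCs and 527 and 479 CPM in those clusters. Against the 600 pre-HC cells, 5 of 8 members were called lower in HCs (background 4.37%). Prelp was 142 CPM against 808 CPM (5.68-fold), Fmod 241 CPM against 1072 CPM (4.45-fold) and Epyc 286 CPM against 1106 CPM (3.86-fold). Omd and Ogn were also lower, at 8.51 CPM and 4.15 CPM in HCs. Dcn was the 1 of 8 called higher in HCs (background 17.5%), at 285 CPM (270 to 301) against 126 CPM, 2.26-fold (2.11 to 2.42). Lum was 350 CPM in HCs and 420 CPM in pre-HCs, and Bgn 473 CPM and 587 CPM, neither called. Dcn in HCs was unevenly held, with 51.8% of its UMIs in the top 10% of cells.

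**Figure D3:**
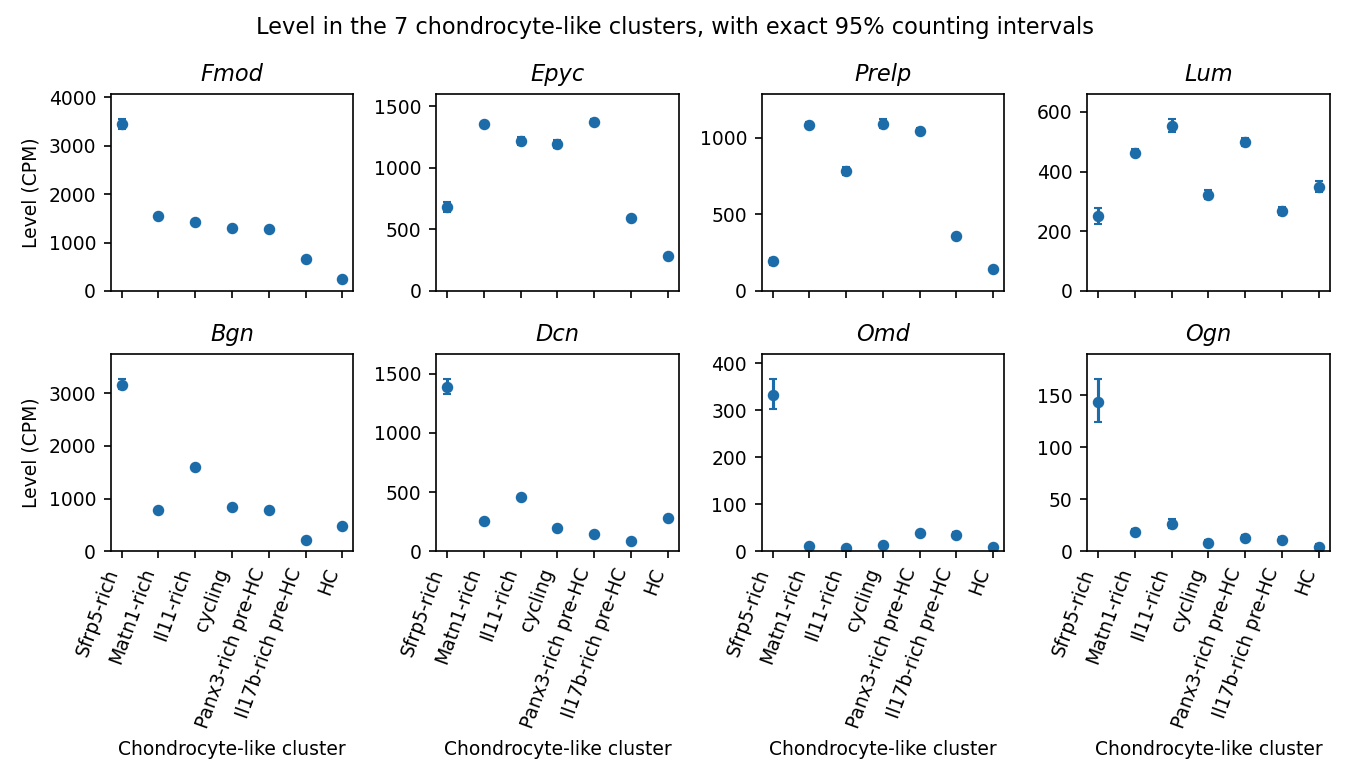
Level (CPM, linear axes that start at 0 and differ between panels) of 8 genes in the 7 chondrocyte-like clusters, with exact 95% counting intervals. The order of the clusters is an arrangement and not a time course. Fmod, Bgn, Dcn, Omd and Ogn peak in the Sfrp5-rich cluster, while Epyc is highest in the Panx3-rich pre-HC cluster (1373 CPM), Prelp in the cycling cluster (1090 CPM), and both are low in the HC cluster.

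Osteoblast-like cells comprised 575 immature osteoblasts, led by Mmp13 and Wif1, and 411 mature osteoblasts, led by Bglap, the osteocalcin gene. Aspn and Ogn were lower in the mature cells and Dcn was higher. Aspn was 210 CPM (200 to 221) in immature and 10.4 CPM (8.38 to 12.8) in mature osteoblasts, a 20.2-fold difference (16.3 to 25.2). Ogn was 180 CPM (170 to 189) and 14.4 CPM (12.01 to 17.2), a 12.5-fold difference (10.4 to 15.1). These were the 2 of 9 members called higher in immature cells (background 14.2%), where the median log2 ratio of all genes was also toward immature cells, by 0.42. Dcn went the other way, at 2393 CPM (2360 to 2425) in mature and 954 CPM (932 to 976) in immature osteoblasts. Dcn was found in 94.6% of thinned mature cells and 69.3% of thinned immature cells, or 97.6% and 78.8% unthinned, against 5.08% of thinned leukocyte-like cells. Bgn was 1881 CPM and 1106 CPM in mature and immature cells, Lum 969 and 1118 CPM, Fmod 234 and 354 CPM, and Omd 99.3 and 96.0 CPM, all within 2-fold. Omd, in spite of its name as a bone protein, did not differ beyond counting error between the states. Markers of other cells moved with Aspn and Ogn, in immature against mature osteoblasts: the 14 fibroblast markers summed to 1815 CPM (2 of 14 at 10 CPM or more) against 365 CPM (3 of 14), the 10 smooth muscle or pericyte markers to 461 CPM (7 of 10) against 140 CPM (4 of 10) and the 12 stromal markers to 1282 CPM (10 of 12) against 158 CPM (6 of 12). Their part in the difference was not tested.

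Of the 3 of 9 members called higher in mature osteoblasts (background 4.75%), Dcn is 1, and Prelp (51.2 against 18.1 CPM) and Epyc (68.9 against 23.4 CPM) are the others. Col2a1 was 2547 CPM in mature and 897 CPM in immature osteoblasts, and the Scrublet program, a tool that marks likely doublets, marked 9.73% of mature and 2.43% of immature cells. With marked cells left out, the log2 ratio of mature to immature cells was -0.33 for Prelp and -0.14 for Epyc, and both calls were lost. In that setting all cells were clustered and named anew, with 867 osteoblast-like cells in place of 986. The groups compared therefore differ by more than the marked cells, and the part of doublets was not tested. The top 10% of mature osteoblasts held 96.2% of Prelp and 94.7% of Epyc UMIs. Dcn kept its call.

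Cells with more than 14 UMIs of WPRE, an element in the reporter transcript, were counted as HC-derived. The study chose that limit on these cells, from its earlier measure of how many HCs are labeled and from a low point in the distribution of WPRE, and 65.1% of the HC cluster passed it. Among osteoblast-like cells 269 passed the limit and 717 did not. Since part of the HC cluster also failed the limit, the other cells may include descendants of HCs. Aspn gave the widest contrast, with 17 UMIs (3.22 CPM, 1.87 to 5.15) in HC-derived cells and 1672 UMIs (151 CPM, 144 to 158) in the others, a 47.0-fold difference (29.2 to 80.8). Ogn followed, at 33.1 CPM (28.4 to 38.4) against 119 CPM (113 to 126), a 3.60-fold difference. These were 2 of 9 members called lower in HC-derived cells (background 1.54%), and none was called higher (background 1.02%). The other members were within 2-fold: Fmod was 190 CPM against 338 CPM, Lum 778 against 1162 CPM, Dcn 1370 against 1892 CPM, Bgn 1409 against 1573 CPM and Omd 85.4 against 104 CPM. The median log2 ratio over the members was -0.53 and over all genes 0.01. The paper writes the Irx3 genotype as +/ΔHC, which marks deletion in HCs by the same Cre. Descent from HCs and loss of that Irx3 copy therefore cannot be told apart in any comparison of HC-derived with other cells.

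By cells, 3 of 268 thinned HC-derived osteoblast-like cells held an Aspn UMI (1.12%, 0.231 to 3.24), compared with 153 of 704 others (21.7%, 18.7 to 25). Leukocyte-like cells showed 0.645%, which lay within the interval of the HC-derived share. For Ogn the shares were 13.1% and 30.1%. HC-derived cells were the deeper group, with a median of 16848 UMIs against 13549. The same comparison was made within each state. In immature osteoblasts Aspn was 7.09 CPM in 133 HC-derived and 296 CPM in 442 other cells (41.7-fold, 25.6 to 73.1), and Ogn 68.2 CPM and 227 CPM (3.32-fold), the 2 of 9 called lower (background 2.45%). Epyc was the 1 called higher in HC-derived immature cells (background 2.34%), at 46.1 CPM against 13.8 CPM, and the 11 chondrocyte markers counted moved with it, to a summed level of 2704 CPM against 1719 CPM.

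In mature osteoblasts Aspn had 1 UMI in 136 HC-derived cells and 90 UMIs in 275 others, a ratio of 47.6 with a counting interval of 8.34 to 1903. Ogn was 6.94 CPM against 18.4 CPM and Prelp 28.4 CPM against 63.3 CPM. These were the 3 of 9 members called lower (background 1.32%), none was called higher (background 0.719%), and the count fell to 1 under 6 other settings and to 0 with at most 5% mitochondrial UMIs, where the log2 ratio of Ogn turned to 0.096. Markers of fibroblasts also differed between HC-derived and other osteoblast-like cells: the 14 listed genes summed to 547 CPM and 1275 CPM, with 3 of 14 at 10 CPM or more in each group. Dpt and Tnmd were at 0 in HC-derived cells, and Clec3b and Thbs4 at 0 in the others. The 10 markers of smooth muscle or pericytes, in which Aspn is also found, summed to 196 CPM and 334 CPM. The part of such cells in the Aspn difference was not tested. Aspn was held by a minority of cells, since the top 10% of all osteoblast-like cells held 88.3% of its UMIs.

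**Figure D4:**
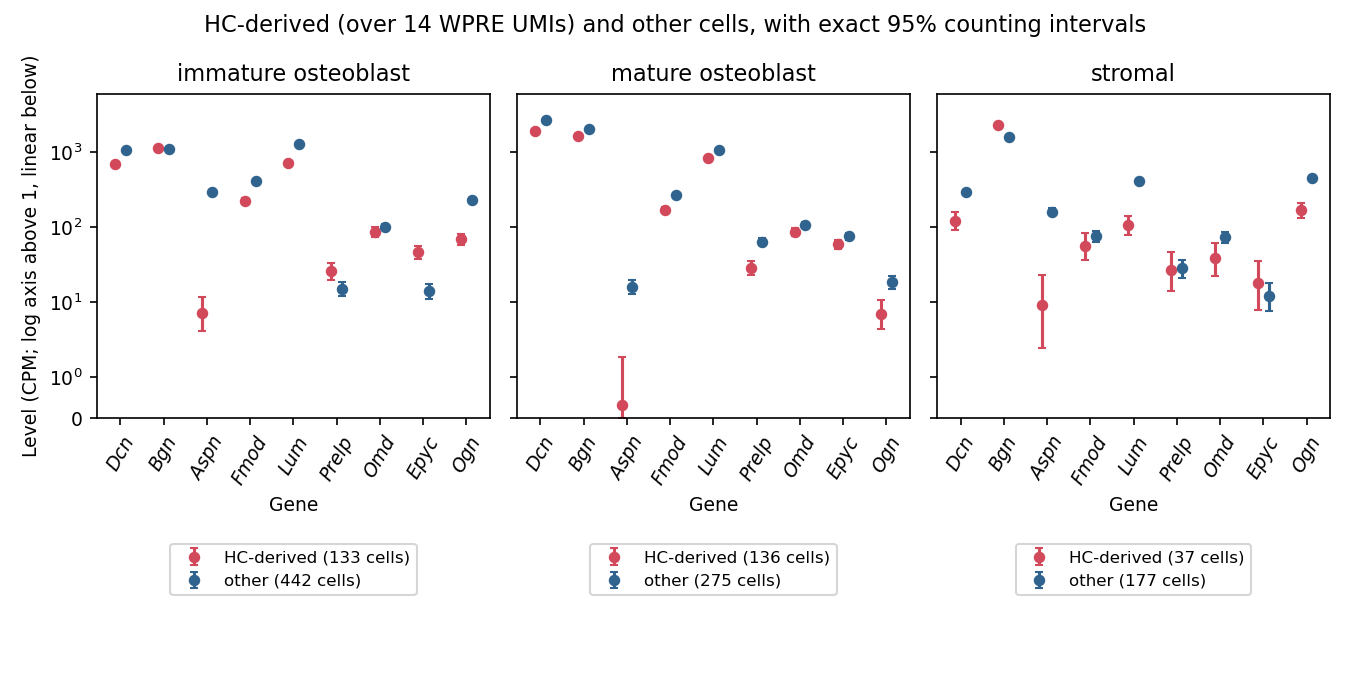
Level (CPM, on a log axis above 1 and linear below) of 9 genes in HC-derived (red) and other cells (blue) of the immature osteoblast, mature osteoblast and stromal clusters. Points are summed UMIs and bars are exact 95% counting intervals. The Aspn points lie far apart in all 3 panels, while Bgn points lie close together.

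The stromal-like cells, which express the marrow niche factor Cxcl12, were compared with osteoblast-like cells. Of 9 members tested, 4 were called higher in osteoblast-like cells (background 4.27%), namely Dcn at 6.68-fold, Fmod at 4.04-fold, Epyc at 3.67-fold and Lum at 2.96-fold. Col2a1 moved with Epyc, at 1779 CPM in osteoblast-like and 628 CPM in stromal-like cells. Ogn was the 1 called higher in stromal-like cells (background 12.1%), at 4.31-fold (3.96 to 4.67). Bgn and Aspn were within 2-fold, at 1.12-fold and 1.27-fold higher in stromal-like cells. Of the 214 stromal-like cells 37 were HC-derived, a small group. In these, 4 of 9 members were called lower than in the other 177 cells (background 5.95%) and none higher (background 3.54%). Aspn was 8.94 CPM against 159 CPM (17.8-fold, 6.88 to 65.7), Lum 105 against 408 CPM (3.88-fold), Ogn 165 against 446 CPM (2.69-fold) and Dcn 121 against 290 CPM (2.40-fold). Bgn was 2280 CPM in HC-derived and 1576 CPM in other stromal-like cells, a 1.45-fold difference in the opposite direction. With cells of at least 1 tdTomato UMI taken as HC-derived, the count of 4 fell to 2. Markers of other cells differed as well. The 14 fibroblast markers summed to 744 CPM in HC-derived and 1373 CPM in other stromal cells, and the 19 leukocyte markers to 206 and 3159 CPM. The 10 smooth muscle or pericyte markers were nearly level, at 675 and 689 CPM. The part of such cells in these differences was not tested.

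Single cells held several members at once. After thinning to 5000 UMIs the median cell held UMIs of 6 of the 10 genes in the fibroblast-like class, 5 in the chondrocyte-like class, 4 in the osteoblast-like class and 3 in the stromal-like class, while 65.8% of leukocyte-like cells held none. No cell of these classes held all 10, and 5 fibroblast-like cells held 9. Dcn and Bgn were found together in 91.2% of fibroblast-like and 78.9% of osteoblast-like cells, against 44.5% of stromal-like cells. Epyc and Prelp were found together in 81.8% of chondrocyte-like cells. Aspn and Ogn were together in 57.5% of fibroblast-like cells but in 9.88% of osteoblast-like cells. Kera was seen with Aspn in 48 of the 72 fibroblast-like cells that held Kera. Among fibroblast-like cells without Kera, 181 held Aspn and 55 did not, so Aspn was not more frequent with Kera. Shares of pairs depend on how common each gene is, and they were not compared with the shares expected from the single genes.

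**Figure D5:**
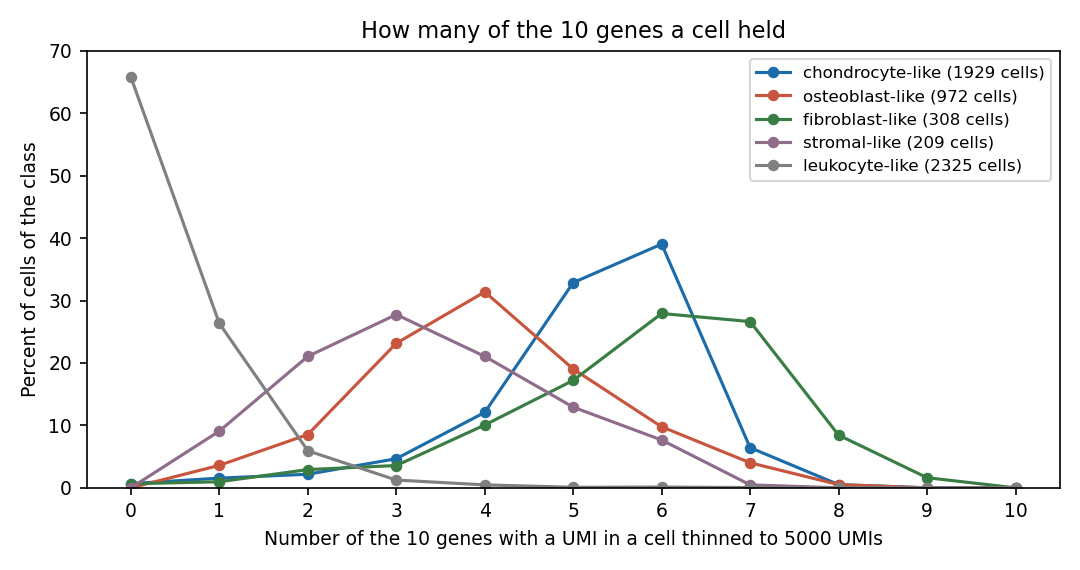
Share of cells (percent, vertical axis) by how many of the 10 genes had at least 1 UMI in a cell thinned to 5000 UMIs (horizontal axis), with 1 line for each class. The fibroblast-like line peaks at 6 genes, the chondrocyte-like line at 6, the osteoblast-like line at 4 and the stromal-like line at 3, and most leukocyte-like cells hold none.

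Across the 18 clusters that were not named as leukocyte, red blood cell or osteoclast clusters, the patterns of the genes were compared by Pearson correlation of log2(CPM + 1). They include the 2 clusters without a name, in which Scrublet marked 130 of 184 cells and which were led by Retnlg and Prg2 of granulocytes and by Hba-a2 and Hbb-bs of red blood cells. The clusters share 1 library and its free RNA and differ in depth, so these are descriptions. The pairs most alike were Dcn with Lum (0.86), Aspn with Ogn (0.85) and Prelp with Epyc (0.83), and the least alike was Aspn with Epyc (-0.44). Neighbors in the genome were not always alike: Dcn and Lum are adjacent, but Lum and Kera gave 0.37, Kera and Epyc -0.25 and Aspn and Omd 0.23. Prelp and Fmod on chromosome 1 gave 0.63. Over the 16 named clusters alone these values were 0.86, 0.85, 0.81 and -0.45 for the first 4 pairs, and 0.37, -0.23, 0.24 and 0.61 for the neighbors.

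Among genes with at least 50 CPM in some cluster, the 3 most like each member were named, and 25 of these 30 were also named without the 2 unnamed clusters, all but Thbs2, Copz2, Sbspon, Ism1 and 1190002N15Rik. Epyc was closest to Matn1 (0.99), Matn3 and Cnmd, all known cartilage matrix genes. Aspn was closest to Cacna1g (0.92), a calcium channel gene, Thy1, a surface marker of fibroblasts, and Thbs2, a matricellular gene. Kera was closest to Clec3b (0.94), Egfl6 and Sbspon. Dcn was closest to Gpx7 (0.93), Abhd14a and Htra3, and Lum to Htra3 (0.96), Serf1 and Copz2. Htra3, a secreted protease gene, was thus on the lists of both neighbors. Bgn was closest to Eri3 (0.87), Col12a1 and Scarf2, and Ogn to Col12a1 (0.93), Abi3bp and Ism1, and Col12a1 encodes a collagen of fibril surfaces. Fmod was closest to Thbs3 (0.95), Mettl1 and Nrk, Prelp to Gm43154 (0.95), Pygl and Gfpt2, and Omd to Fat3 (0.77), Gxylt2 and 1190002N15Rik. No gene reached a value above 0.77 with Omd.

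Other leucine-rich proteoglycan genes were split in the same 4 classes. Of 8 listed, 5 reached 10 CPM. Ecm2, the neighbor of Aspn, was 115 CPM in fibroblast-like and under 16 CPM in the other classes (15.1 CPM in stromal-like cells). Chad, for the cartilage protein chondroadherin, and Chadl were highest in chondrocyte-like cells, at 89.9 CPM and 325 CPM. Podnl1 was 163 CPM in stromal-like and 63.5 CPM in osteoblast-like cells. Optc, the neighbor of Prelp, was at or below 2.19 CPM in these classes.

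The collagens that these proteins bind were also divided between the classes. Of 16 listed fibril collagens tested, 8 were called higher in osteoblast-like than in chondrocyte-like cells and 6 lower, against 16.7% and 9.29% of all genes. Many of the listed collagens were markers used to name the classes, so these counts were in part set in advance. They were Col2a1, Col9a1, Col9a2, Col9a3 and Col11a2 of chondrocytes, Col1a1 and Col1a2 of osteoblasts, and Col12a1 and Col14a1 of fibroblasts. The naming also required levels of Col1a1 and Col2a1 that fit the name. Col2a1 was 45333 CPM in chondrocyte-like cells, and Col1a1 was 37512 CPM in osteoblast-like, 16676 CPM in fibroblast-like and 228 CPM in chondrocyte-like cells. Col3a1, for type III collagen, and Col14a1, for a collagen of fibril surfaces, were highest in fibroblast-like cells, at 9883 CPM and 541 CPM.

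Genes that build the sulfated chains were read next. Of 19 genes of the glycosaminoglycan linker and of chondroitin or dermatan sulfate tested, 6 were called higher in chondrocyte-like than in osteoblast-like cells, against 9.29% of all genes, and 2 lower, against 16.7%. Xylt1, which starts the chains, was 273 CPM in chondrocyte-like and 22.3 CPM in osteoblast-like cells, and Chst11, a chondroitin sulfotransferase, was 490 CPM and 60.4 CPM. Chst13 was 33.1 CPM in osteoblast-like and 0.131 CPM in chondrocyte-like cells, and Chst7 was 39.9 CPM in stromal-like cells. In the sulfate supply 2 of 5 genes were called higher in chondrocyte-like cells (9.29% of all genes) and none lower (16.7%). Slc26a2, the sulfate importer, was 279 CPM against 43.2 CPM, Papss2, which makes the sulfate donor, 460 CPM against 49.5 CPM, and Slc35b2, the Golgi transporter of that donor, 160 CPM against 83.7 CPM. Of 8 listed keratan sulfate genes 3 reached 10 CPM, among them Chst2 at 90.6 CPM in stromal-like and 3.29 CPM in chondrocyte-like cells, B4galt1 at 68.7 CPM and Chst5 at 11.9 CPM in fibroblast-like cells.

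Of the 9 listed proteases known to cleave these proteins, 6 reached 10 CPM, and all 6 were called higher in osteoblast-like than in chondrocyte-like cells, against 16.7% of all genes. Bmp1, which trims the propeptide of biglycan, was 530 CPM in osteoblast-like and 50.4 CPM in chondrocyte-like cells. Mmp13 was 4920 CPM in stromal-like and 1972 CPM in osteoblast-like cells, and it is a marker used to name osteoblasts. In chondrocyte-like cells it was 72.8 CPM, with 330 CPM in the HC cluster and 231 CPM in the Il11-rich cluster. Mmp14, a protease of the cell membrane, was 761 CPM in fibroblast-like, 519 CPM in stromal-like, 435 CPM in osteoblast-like and 51.4 CPM in chondrocyte-like cells. Mmp14 is also a listed marker of immature osteoblasts that counted in the naming. With Mmp13 and Mmp14 among the 6 proteases, their count was in part set in advance. Adamts5, an aggrecanase, was 190 CPM in stromal-like and 183 CPM in osteoblast-like cells.

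Of the 6 TGF-beta ligand and receptor genes listed, 4 were called higher in fibroblast-like than in osteoblast-like cells and 1 lower, against 11.6% and 4.53% of all genes. Tgfb3 was 76.5 CPM against 24.8 CPM and Tgfbr2 116 CPM against 35.0 CPM. Tgfbr3, the coreceptor betaglycan, was highest in stromal-like cells at 214 CPM, and Tgfbr1 was 71.3 CPM there and 56.3 CPM in fibroblast-like cells.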

How the data were processed

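Single cells of the P6 tibiae were profiled on the 10x Genomics droplet platform. The authors deposited 1 table of raw UMI counts for 14181 barcodes and 31053 genes, made by Cell Ranger (v3.1.0) on mm10 per the submitters' processing notes, which also name Seurat 3, and a count table of added sequences such as WPRE and tdTomato. The annotation release and the strand setting of the counting are not stated in the sources at hand. Coordinates came from GENCODE M21 on GRCm38, which matched 31011 of 31053 identifiers, and promoters from RefSeq tables on GRCm38.p6.

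Cells with at least 1600 genes (the study's limit), at most 10% mitochondrial and at most 50% ribosomal protein UMIs were kept. Each cell was scaled to 10000 counts and logged, and then 2000 variable genes (the 10 family genes excluded), 30 principal components, 20 neighbors and Leiden resolution 1 gave the clusters (Python 3.11.15, scanpy 1.11.5, igraph 0.11.9, scikit-learn 1.9.0, numpy 2.4.6, scipy 1.17.1, pandas 2.3.3, anndata 0.12.19, matplotlib 3.10.9). The 8 other leucine-rich proteoglycan genes listed were also excluded from the variable genes. The alternative that allowed the family genes there allowed these too. Each cluster took the marker list with most genes among its top 20 by fold, ties, and clusters with no marker there, going to the higher mean marker z-score (at least 0.5 without such a marker). A cluster with no marker among the 20, at least 50 CPM of Ptprc and collagen Col1a1 and Col2a1 under 5000 CPM was called leukocyte-like. At least 3 markers at 10 CPM and collagen levels that fit the name were required, and these limits were set after clusters were seen. The HC and Eln-rich vessel clusters rested on 1 marker each among the 20. A cluster called "-rich" is named for 1 of its high genes. These names were rebuilt here and need not match the clusters of the study. Doublets marked by Scrublet (588 barcodes, 4.15%) were kept, except that clusters with over 50% of them stayed unnamed.

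UMIs were summed per class and divided by the class total (CPM). Intervals are exact Poisson, exact conditional binomial for ratios, and Clopper-Pearson for shares of cells thinned to 5000 UMIs. A count of 0 allows 3 counts. No test was run, since cells are not replicates. All 10 genes were named, with at most 4 genes of each pathway list that differed at least 2-fold between classes, by size, their neighbors in the genome, and 3 like-patterned genes for each member. The members and gene lists were chosen with earlier results of these data known. Alternatives covered filters, resolution, variable genes, doublets, thinning, pseudocount, minimum level, WPRE limits and, chosen after seeing the data, leaving out haemoglobin-rich cells, single clusters or, for correlations, the 2 unnamed clusters. A cluster of 13 cells is not reported here.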

Additional observations from a re-analysis of the deposited data

How the results depend on the processing

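Of 256 recounts (called members, members highest in a class, and levels within 1.5 times), 245 stayed within 1.5 times, and 11 moved. Of single log2 ratios, 1301 stayed within their counting interval, 643 left it in the same direction and 5 turned. Of single levels, 281 stayed and 259 left it. HC-derived against other mature osteoblasts gave 3 called members, but 1 with at least 2000 genes per cell, at most 20% mitochondrial UMIs, Leiden resolution 0.6, the family genes allowed among the variable genes, 10 CPM added or at least 50 CPM in either group, and 0 with at most 5% mitochondrial UMIs. Mature against immature osteoblasts gave 5, but 3 with at most 5% mitochondrial UMIs or with cells marked by Scrublet left out. HC-derived against other stromal cells gave 4, but 2 with Leiden resolution 1.5 or at least 1 tdTomato UMI. Directions turned in 5 log2 ratios: Epyc in Tnmd-rich over Postn-rich fibroblasts (-0.46, at least 1000 genes per cell), Epyc in mature over immature osteoblasts (-0.090, at most 5% mitochondrial UMIs, and -0.14 without marked cells), Prelp there (-0.33, without marked cells) and Ogn in HC-derived over other mature osteoblasts (0.10, at most 5% mitochondrial UMIs). The cause was not tested.

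Of 40 class levels, 35 to 40 stayed within 1.5 times. Stromal-like cells were not named with at most 5% mitochondrial UMIs or at resolution 0.6, so 30 levels remained, of which 24 and 30 stayed within 1.5 times. HC-derived against other osteoblast-like cells gave 2 or 3 called members under all 20 alternatives run. Clusters could be compared only where both were found under their names. That held in 8 alternatives for Sfrp5-rich against Matn1-rich chondrocytes, 13 for Tnmd-rich against Postn-rich fibroblasts and 15 for HC against pre-HC. Chondrocyte-like and osteoblast-like cells were compared in 17. No paired analysis was possible because the 4 entries are 1 library. With 1 mouse, spread between animals is unknown, and depth limits Kera outside fibroblasts and Aspn in small HC-derived groups.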

Other observations

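Outside the 4 classes the family was also found in the walls of vessels. Among the 100 cells of the smooth muscle or pericyte cluster, led by Rgs5, Aspn was 444 CPM (404 to 486), above its level in immature osteoblasts (210 CPM), and 71.4% of thinned cells held a UMI (61.0 to 80.4), or 84.0% without thinning. Bgn was 1219 CPM (1153 to 1288) there. Dcn was 47.8 CPM, and the ratio of Dcn to Bgn UMIs was 0.0392, against 0.839 in fibroblast-like cells. In the 749 cells of the Emcn-rich vessel cluster Bgn was 269 CPM (258 to 279), found in 54.2% of thinned cells against 13.4% of leukocyte-like cells, or 23.4% of the latter without thinning. The 9 other genes were at or below 35.4 CPM there.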
